A study of Mus musculus with 16 samples.

Results

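The 10 genes described here, B2m, Tap1, Tap2, Tapbp, Erap1, Calr, Canx, Pdia3, Nlrc5 and Sec61a1, carry peptides onto MHC class I molecules, control that process or serve its cross-presentation branch. Each gene was read through the probe set that names it alone, and through the brightest such probe set where there were several. All 10 were found among 19938 genes with a probe set of their own. Nlrc5 had 19 such probe sets and each of the other members had 1. All values are log2 array signals as deposited, and gene positions are those of RefSeq on GRCm38.p6.

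The RNA came from myeloid cells of mouse lung, sorted by flow cytometry as CD11c+, MHC2+ and CD11b+ and called CD11b+ DCs in the labels. One group of 8 arrays, tumoral 1 to 8, was sorted from lung tumours, and the other group of 8, peritumoral 1 to 8, from the lung tissue beside them. Every host was an immunocompetent C57BL/6 mouse whose airways had received syngeneic Lewis lung carcinoma cells (LLC, an established mouse lung tumour line), so the peritumoral samples also come from tumour-bearing lungs and no tumour-free group is analysed here. The labels give no age and do not tie an array to an animal or a pool. The p-values therefore reflect array-to-array spread, which may be technical.

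In the class I pathway, peptides cut by the proteasome are pumped into the endoplasmic reticulum by the TAP transporter. Inside, the aminopeptidase ERAP1 trims them, and calnexin, calreticulin, ERp57 and tapasin hold the heavy chain and its light chain, beta-2 microglobulin, ready for loading. Interferons raise many of these genes, in part through the transactivator NLRC5. Dendritic cells can also place peptides from engulfed material on class I molecules, which is called cross-presentation and is how they prime killer T cells against tumours.

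RefSeq windows of GRCm38.p6 were at hand for 7 of the 10 members, and the 250 bases before each start were searched on both strands for letters of known regulatory sites. The windows of B2m, Calr and Canx are shown because they hold such letters, and that of Tap1 because this gene followed interferon-response genes most closely below. In B2m (chr2:122147437-122147686, + strand) the capitals mark GAAANNGAA, the type bound by interferon regulatory factors, and GGANNTTCC, the NF-kB type, here on the reverse strand. In Calr (chr8:84846932-84847181, - strand) and Canx (chr11:50325674-50325923, - strand) the capitals mark CCAAT and CCACG 9 bases apart, the endoplasmic reticulum stress element, on the reverse strand in Calr. The 250 bases of Tap1 hold none of the letters searched, and the 225 of them printed (chr17:34187331-34187555, + strand) are those between Tap1 and its neighbour Psmb9, an immunoproteasome gene. The B2m window lies inside the annotated gene Patl2, and those of Calr and Canx overlap 1700122E12Rik and Gm46280. The printed sequences run 5′ to 3′ along each gene.
B2m: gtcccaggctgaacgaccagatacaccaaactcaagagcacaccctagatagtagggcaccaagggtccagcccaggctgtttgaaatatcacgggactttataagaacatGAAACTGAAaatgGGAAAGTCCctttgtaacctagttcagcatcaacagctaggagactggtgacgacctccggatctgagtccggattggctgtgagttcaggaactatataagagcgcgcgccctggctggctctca
Tap1: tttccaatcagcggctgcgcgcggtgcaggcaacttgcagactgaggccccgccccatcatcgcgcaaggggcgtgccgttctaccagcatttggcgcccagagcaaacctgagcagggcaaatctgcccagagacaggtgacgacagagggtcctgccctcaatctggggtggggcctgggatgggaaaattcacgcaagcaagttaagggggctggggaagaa
Calr: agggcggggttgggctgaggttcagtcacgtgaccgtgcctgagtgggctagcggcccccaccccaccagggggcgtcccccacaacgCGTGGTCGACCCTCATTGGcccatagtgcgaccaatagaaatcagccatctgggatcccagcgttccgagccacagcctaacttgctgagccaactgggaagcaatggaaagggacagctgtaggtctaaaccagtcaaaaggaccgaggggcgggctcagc
Canx: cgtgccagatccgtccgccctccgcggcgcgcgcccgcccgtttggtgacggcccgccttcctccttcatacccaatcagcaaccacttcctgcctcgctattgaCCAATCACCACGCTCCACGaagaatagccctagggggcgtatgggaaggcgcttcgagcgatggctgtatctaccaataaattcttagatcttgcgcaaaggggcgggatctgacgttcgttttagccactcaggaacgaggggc

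The interferon type GAAANNGAA stood in 7.13% of 32851 windows of the same length and, among the members, in those of B2m and Erap1. The Erap1 window (chr13:74639603-74639852) lies inside the gene as annotated, so its match is not upstream of the gene's first base. The NF-kB type stood in 3.59% of windows and among the members in that of B2m. The endoplasmic reticulum stress element stood in 0.113% of windows, and in the members Calr and Canx. TGACGTCA, the cAMP response element (1.55% of windows), matched no member. No match overlapped another. A match is a description of letters and not a measured site.

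Some arrays stood apart from the others, and the members have to be read with them in view. The mean of 7 conventional dendritic cell markers, each centred on its own mean over 16 arrays, measured -0.59, -0.69 and -0.34 in tumoral 1, 4 and 7 and -0.69 and -0.93 in peritumoral 3 and 6, against -0.04 or more in the other 11 arrays. In the deposited order, peritumoral 1 to 8 and then tumoral 1 to 8, these 5 arrays hold places 3, 6, 9, 12 and 15, so they recur at a fixed step across both labels. The labels give no reason for that step, and every array is kept here under its title. Lung epithelial, B cell and T cell markers were also lowest in these 5 arrays. For lung epithelium they measured -0.65, -0.79 and -0.80 in tumoral 1, 4 and 7 and -0.74 and -0.76 in peritumoral 3 and 6. Type 1 dendritic cell markers measured -0.09, 0.12 and 0.0 in tumoral 1, 4 and 7. In peritumoral 3 and 6 they measured -0.36 and -0.40. Macrophage markers were highest in tumoral 4 and tumoral 1 (0.63 and 0.46), with tumoral 7 at 0.34, within a range of -0.18 to 0.63 over tumoral and -0.86 to 0.29 over peritumoral arrays. Peritumoral 6 and 3, at 0.29 and 0.195, were the highest peritumoral arrays for them. Endothelial markers measured -0.55 to -0.45 in tumoral arrays, against -0.50 to 3.82 in peritumoral arrays, with peritumoral 4 at 3.82 and peritumoral 7 at 1.48. Peritumoral 4 was also the highest array for lung epithelial, lymphocyte, neutrophil, alveolar macrophage and fibroblast markers. The sorting genes were bright under both labels, with log2 values of 11.62 ± 0.08 in tumoral and 11.47 ± 0.24 in peritumoral arrays for Itgax (CD11c), 11.31 ± 0.25 and 11.22 ± 0.50 for Itgam (CD11b), and 13.25 ± 0.08 and 13.21 ± 0.13 for H2-Ab1 (MHC class II; SD, n = 8 each). These cells were measured in bulk, so fewer cells of a type and less RNA per cell cannot be told apart.

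No member passed the test between tumoral and peritumoral arrays over all genes, and the largest positive differences among the members were those of Pdia3 and Erap1. By limma with Benjamini-Hochberg adjustment at 0.05, 0 of 10 members passed, as did 0% of all 19938 genes, where the smallest adjusted p was 0.232. Of the members 7 had a positive difference, with a median over all 10 of 0.07 on the log2 scale, against 41.7% of all genes and a median of -0.02. At an unadjusted p under 0.05 there were 2 members, both higher, against 5.60% of all genes higher at that level. The labels overlapped in all 10 members, and 0.0853% of all genes had labels that did not overlap.

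**Figure D1:**
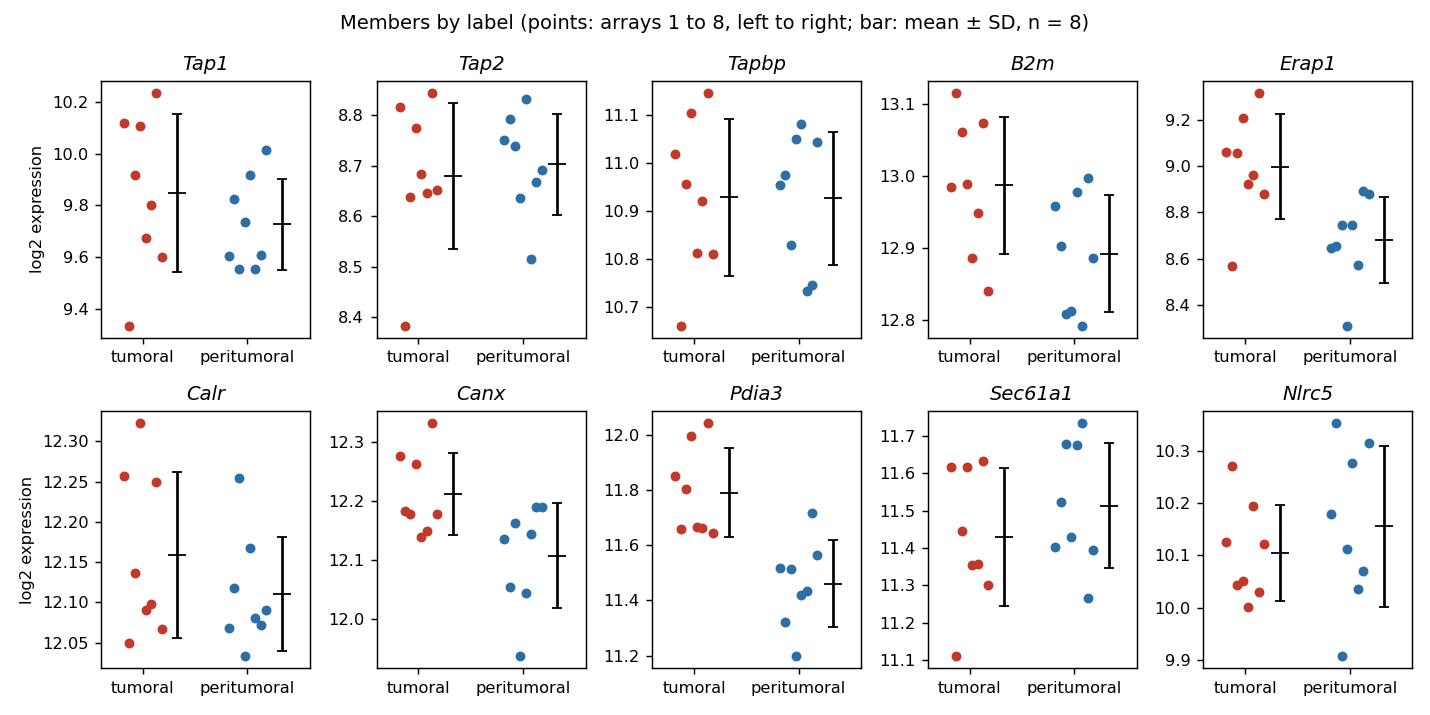
Log2 expression of the 10 members in each array, with tumoral arrays (red) left of peritumoral arrays (blue), points in the order of the array numbers and a bar for the mean ± SD of 8 arrays. The labels overlap in every panel, and Pdia3 and Erap1 show the widest distance between means (0.33 and 0.32).

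Pdia3 (chr2:121413902-121438687) encodes ERp57, the oxidoreductase of the loading complex. In tumoral 1 to 8 it measured 11.85, 11.66, 11.80, 12.00, 11.67, 11.66, 12.04 and 11.64, and in peritumoral 1 to 8 it measured 11.52, 11.32, 11.52, 11.20, 11.42, 11.43, 11.72 and 11.57. All 8 tumoral arrays lay above 7 of the 8 peritumoral arrays, and peritumoral 7 fell inside the tumoral range. The group values were 11.79 ± 0.16 for tumoral and 11.46 ± 0.16 for peritumoral arrays (SD, n = 8 each), a difference of 0.33 ± 0.08 (SE) with a limma adjusted p of 0.239. Without peritumoral 7 the difference was 0.37 (limma adjusted p = 0.0446), and 0.642% of all genes passed in that fit. Leaving out that array removes the highest peritumoral value, so this call is a description and supports nothing. Leaving out any other single array gave limma adjusted p-values of 0.111 to 0.447 for Pdia3.

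Erap1 (chr13:74639573-74693205), the aminopeptidase that trims peptides to class I length, split the arrays in a like way. It measured 9.06, 8.57, 9.06, 9.21, 8.93, 8.96, 9.32 and 8.88 in tumoral 1 to 8, against 8.65, 8.65, 8.75, 8.31, 8.75, 8.57, 8.89 and 8.88 in peritumoral 1 to 8. Apart from tumoral 2, the lowest tumoral array, every tumoral value was above peritumoral 1 to 6. Erap1 averaged 8.998 ± 0.227 for tumoral and 8.681 ± 0.187 for peritumoral arrays (SD, n = 8 each), and the difference of 0.32 ± 0.10 (SE) did not pass (limma adjusted p = 0.275).

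The values of Pdia3 and Erap1 in peritumoral 7 and 8 lay above those in peritumoral 1 to 6. Pdia3 reached at most 11.52 in peritumoral 1 to 6, below all 10 other arrays, the lowest of which was peritumoral 8 at 11.57. Erap1 reached 8.75 at most in peritumoral 1 to 6, against 8.89 and 8.88 in peritumoral 7 and 8. Against peritumoral 7 and 8 alone the difference was 0.15 ± 0.12 (SE) for Pdia3 and 0.11 ± 0.15 for Erap1 (limma adjusted p = 1 for both). Against peritumoral 1 to 6 alone it was 0.39 ± 0.08 for Pdia3 and 0.39 ± 0.11 for Erap1. In that fit Pdia3 was past the threshold, as were 2.62% of all genes. This split was chosen after these values were seen and leaves out the higher peritumoral arrays, so its calls are a description and support nothing. The labels name no batch that would set peritumoral 1 to 6 apart, and the part of such a split in the difference was not tested.

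Canx (chr11:50293957-50325673) encodes calnexin, the membrane chaperone that receives new heavy chains. It ran from 12.14 through a median of 12.18 to 12.33 in tumoral arrays, against 11.94, 12.14 and 12.19 in peritumoral arrays, so that 3 tumoral arrays lay above every peritumoral one. Its difference was 0.105 ± 0.051 (SE; limma adjusted p = 0.447). Like Pdia3 and Erap1, Canx was higher in peritumoral 7 and 8 (12.19 in each) than in peritumoral 1 to 6 (12.16 at most). The Canx difference was 0.133 without peritumoral 7 and 8 and 0.022 against those arrays alone. Erap1, Canx and Pdia3 shared their extremes. Each was highest in tumoral 1, 4 and 7 and lowest in peritumoral 4, the arrays described above for their dendritic, macrophage and endothelial marker values, and the part of those cells in the values was not tested.

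**Figure D2:**
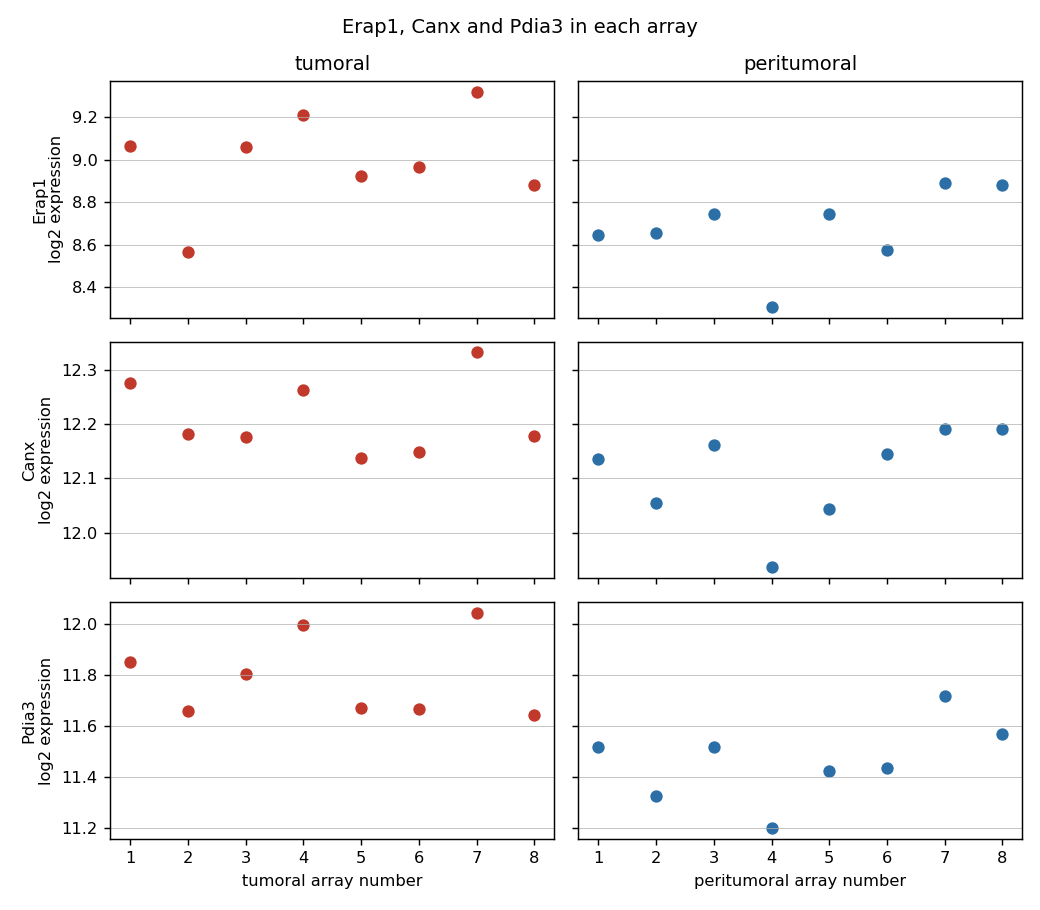
Log2 expression of Erap1, Canx and Pdia3 by array number, tumoral arrays (red) in the left column and peritumoral arrays (blue) in the right column, 1 point per array. Tumoral 1, 4 and 7 are the 3 highest arrays in each row, and peritumoral 4 is the lowest.

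The other chaperone and light chain genes differed little between the labels. Calr (chr8:84842088-84846931), which encodes the soluble lectin chaperone calreticulin, had a lowest, median and highest value of 12.05, 12.12 and 12.32 in tumoral arrays, against 12.03, 12.09 and 12.26 in peritumoral arrays, a difference of 0.05 ± 0.05 (SE; limma adjusted p = 0.756). Tumoral 1, tumoral 4 and peritumoral 3 were its highest arrays. B2m (chr2:122147687-122153082), the light chain of every classical class I molecule, had 12.84, 12.99 and 13.12 in tumoral arrays, against 12.79, 12.90 and 13.00 in peritumoral arrays. Its difference was 0.10 ± 0.05 (SE; limma adjusted p = 0.508), with 3 tumoral arrays above all peritumoral ones. Unlike most members, B2m was highest in tumoral 2, where Tap1, Tap2, Tapbp and Sec61a1 had their lowest value of the 16 arrays.

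The peptide transporter and its bridge to the heavy chain differed more among tumoral arrays than between the labels. Tap1 (chr17:34187556-34197225) and Tap2 (chr17:34204479-34216321) encode the subunits of the TAP pump. Tap1 measured 10.12, 9.33, 9.92, 10.11, 9.67, 9.80, 10.24 and 9.60 in tumoral 1 to 8, against 9.60, 9.83, 9.55, 9.74, 9.92, 9.56, 9.61 and 10.01 in peritumoral 1 to 8. Tumoral arrays held both the 3 highest values (tumoral 1, 4 and 7) and the lowest (tumoral 2). The means were 9.85 ± 0.31 and 9.73 ± 0.18 (SD, n = 8 each), and the difference of 0.12 ± 0.12 (SE) did not pass (limma adjusted p = 0.708).

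Tap2 had a lowest, median and highest value of 8.38, 8.67 and 8.85 in tumoral arrays, against 8.52, 8.72 and 8.83 in peritumoral arrays. The low value was tumoral 2, and the difference was -0.02 ± 0.07 (SE; limma adjusted p = 0.925). Tapbp (chr17:33919478-33929290) encodes tapasin, which tethers the heavy chain to TAP. It had 10.66, 10.94 and 11.15 in tumoral arrays, against 10.73, 10.96 and 11.08 in peritumoral arrays, with a difference of 0.002 ± 0.077 (SE; limma adjusted p = 0.994).

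A further 2 probe sets name Tapbp together with Rps3a1, a ribosomal protein gene, and were not used for any member. They set peritumoral 1 to 6 apart from all other arrays. The first measured 11.27 to 11.39 in tumoral arrays and 11.42 and 11.29 in peritumoral 7 and 8, against 10.73 to 11.01 in peritumoral 1 to 6. The second measured 11.17 to 11.30 in tumoral arrays and 11.34 and 11.18 in peritumoral 7 and 8, against 10.62 to 10.92 in peritumoral 1 to 6. The probe set of Tapbp alone showed no such step, at 10.73 to 11.08 in peritumoral 1 to 6 and 10.75 and 11.04 in peritumoral 7 and 8.

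Sec61a1 (chr6:88503607-88518800) encodes the pore of the translocon, through which nascent proteins enter the endoplasmic reticulum and which has been proposed as an exit for antigen in cross-presentation. It had a lowest, median and highest value of 11.11, 11.40 and 11.63 in tumoral arrays, against 11.27, 11.48 and 11.73 in peritumoral arrays. The difference was -0.08 ± 0.09 (SE; limma adjusted p = 0.732). Its 3 highest arrays were all peritumoral (3, 5 and 6), with tumoral 1, 4 and 7 next at 11.62, 11.62 and 11.63. Apart from peritumoral 5, at 11.68, the 5 arrays at the fixed step were thus its highest, at 11.62 to 11.73. These 5 were low in conventional dendritic cell, lung epithelial, B cell and T cell markers. The remaining 10 arrays measured 11.52 or less. The part of the cell mixture in these values was not tested.

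For Nlrc5 (chr8:94434335-94527272), the transactivator of class I genes, the result turned on the probe set. The brightest probe set measured 10.13, 10.27, 10.04, 10.05, 10.001, 10.19, 10.03 and 10.12 in tumoral 1 to 8, against 10.18, 10.35, 9.91, 10.11, 10.28, 10.04, 10.07 and 10.32 in peritumoral 1 to 8. No tumoral array was above the highest peritumoral one, and the difference was -0.05 ± 0.07 (SE; limma adjusted p = 0.804). All 18 other probe sets lay higher in tumoral arrays, by 0.15 to 0.48 with a median of 0.28. In a limma fit over all 21789 probe sets that name 1 gene, chosen after seeing the data, 12 of these 18 had an unadjusted p under 0.05, against 6.68% of all probe sets higher at that level, and 0 passed after Benjamini-Hochberg adjustment (smallest adjusted p = 0.189). The 18 read 1 gene in the same arrays and are not replicates.

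The mean of the 18 probe sets was 9.15, 8.56, 8.93, 9.16, 8.79, 8.96, 9.20 and 8.77 in tumoral 1 to 8, against 8.61, 8.78, 8.29, 8.41, 8.80, 8.47, 8.72 and 9.08 in peritumoral 1 to 8. Tumoral 1, 4 and 7 were again its 3 highest arrays. Each of the 18 correlated with the mean of the other 17 at a Pearson r of 0.799 to 0.982 over 16 arrays, whereas the brightest probe set correlated with the 18 at 0.175.

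**Figure D3:**
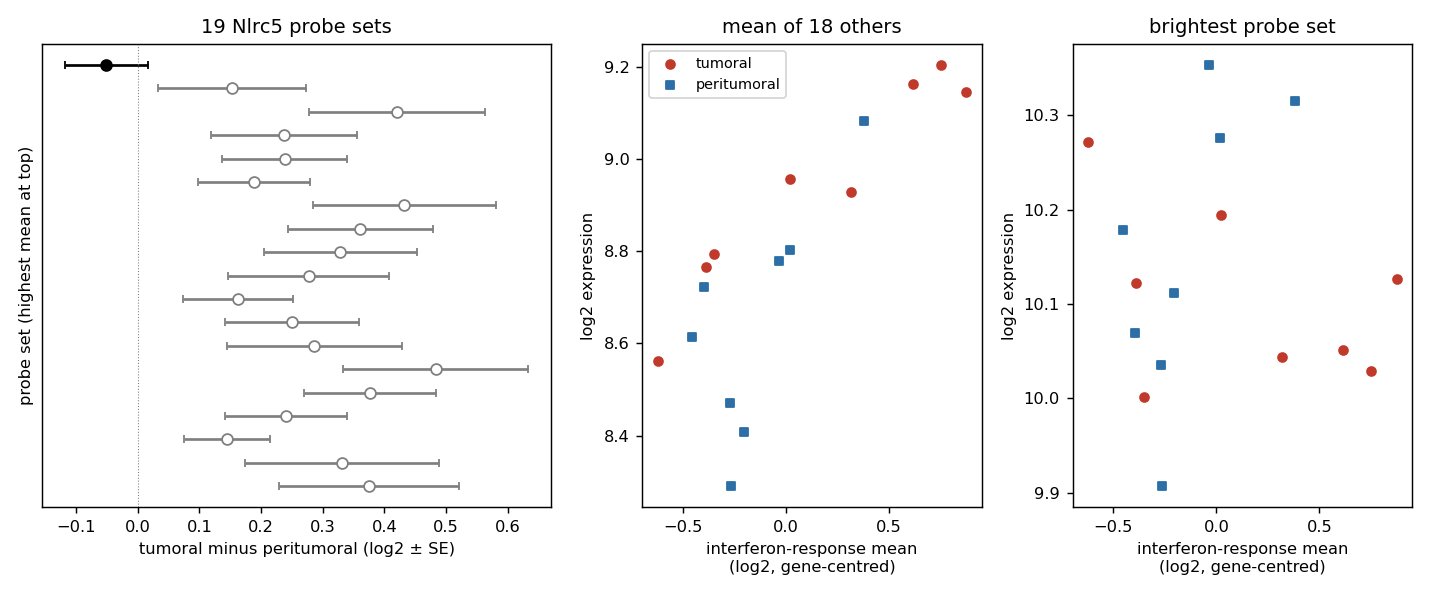
Left, the tumoral minus peritumoral difference (log2 ± SE) of the 19 Nlrc5 probe sets, ordered by mean level with the brightest at the top (filled). Middle and right, the mean of the 18 other probe sets and the brightest probe set in each array (red tumoral, blue peritumoral) against the interferon-response mean. The brightest probe set is at -0.05 and the 18 others run from 0.15 to 0.48.

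From array to array several members varied with interferon-response genes, Tap1 most closely. The interferon-response mean was taken over 22 genes, none of them a member, each centred on its own mean. It measured 0.88, -0.62, 0.32, 0.62, -0.35, 0.02, 0.75 and -0.39 in tumoral 1 to 8, against -0.45, -0.03, -0.26, -0.20, 0.02, -0.27, -0.40 and 0.38 in peritumoral 1 to 8. Over 16 arrays Tap1 correlated with it at a Pearson r of 0.954 (permutation p = 1e-05, the smallest that 100000 draws can give; adjusted p = 0.0001 over 10 members) and a Spearman rho of 0.900 (permutation p = 2e-05, adjusted p = 0.0002). Without tumoral 1 and 7, the arrays farthest from the median of the mean, r was 0.944. Within tumoral arrays it was 0.970 and within peritumoral arrays 0.911 (n = 8 each).

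Tapbp, Calr and Erap1 also passed by both measures after adjustment over the 10 members. The permutations took all 16 arrays as exchangeable, although tumoral 1, 4 and 7 stood apart and had the highest interferon-response means (0.88, 0.62 and 0.75). The permutation p-values of the members therefore cannot by themselves tell a relation across arrays from a step between those arrays and the rest. Within peritumoral arrays r was 0.600 for Tapbp, 0.099 for Calr and 0.279 for Erap1. Tapbp had an r of 0.765 and a rho of 0.782 (permutation p = 0.00074 and 0.00064, adjusted p = 0.0037 and 0.0032). Calr had an r of 0.730 and a rho of 0.747 (permutation p = 0.00179 and 0.00121, adjusted p = 0.005 and 0.00403). Erap1 had an r of 0.711 and a rho of 0.685 (permutation p = 0.002 and 0.00434, adjusted p = 0.005 and 0.0108). Without tumoral 1 and 7 their r was 0.755, 0.599 and 0.594. After cyclic loess normalization of the arrays their r was 0.550, 0.464 and 0.572 and none of them passed, while Tap1 did at 0.907. How many of all genes correlated with the interferon-response mean as closely was not computed.

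In 3 further members r passed and rho did not. Tap2 had an r of 0.595 and a rho of 0.521 (permutation p = 0.0136 and 0.0403, adjusted p = 0.0272 and 0.0737). Pdia3 had an r of 0.583 and a rho of 0.394 (permutation p = 0.0179 and 0.131, adjusted p = 0.0299 and 0.163). Canx had an r of 0.536 and a rho of 0.415 (permutation p = 0.0315 and 0.111, adjusted p = 0.0449 and 0.158). Their r without tumoral 1 and 7 was 0.447, 0.358 and 0.223, for which no p was computed. After cyclic loess it was 0.123, 0.547 and 0.446, and none of them passed. Tap2 was also at 0.096 after quantile normalization.

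Sec61a1, B2m and the brightest Nlrc5 probe set did not pass. Their r was 0.514, 0.307 and -0.043 and their rho 0.512, 0.200 and 0.003 (permutation p of r = 0.042, 0.248 and 0.874, adjusted p = 0.0525, 0.275 and 0.874; permutation p of rho = 0.0442, 0.457 and 0.995, adjusted p = 0.0737, 0.508 and 0.995). Without tumoral 1 and 7 their r was 0.414, 0.105 and 0.090. For B2m r was 0.553 after quantile normalization and 0.458 after cyclic loess. It was 0.584 without tumoral 2, against 0.177 to 0.357 leaving out any other single array. The 18 other Nlrc5 probe sets had an r of 0.496 to 0.880 with the interferon-response mean, with a median of 0.802.

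**Figure D4:**
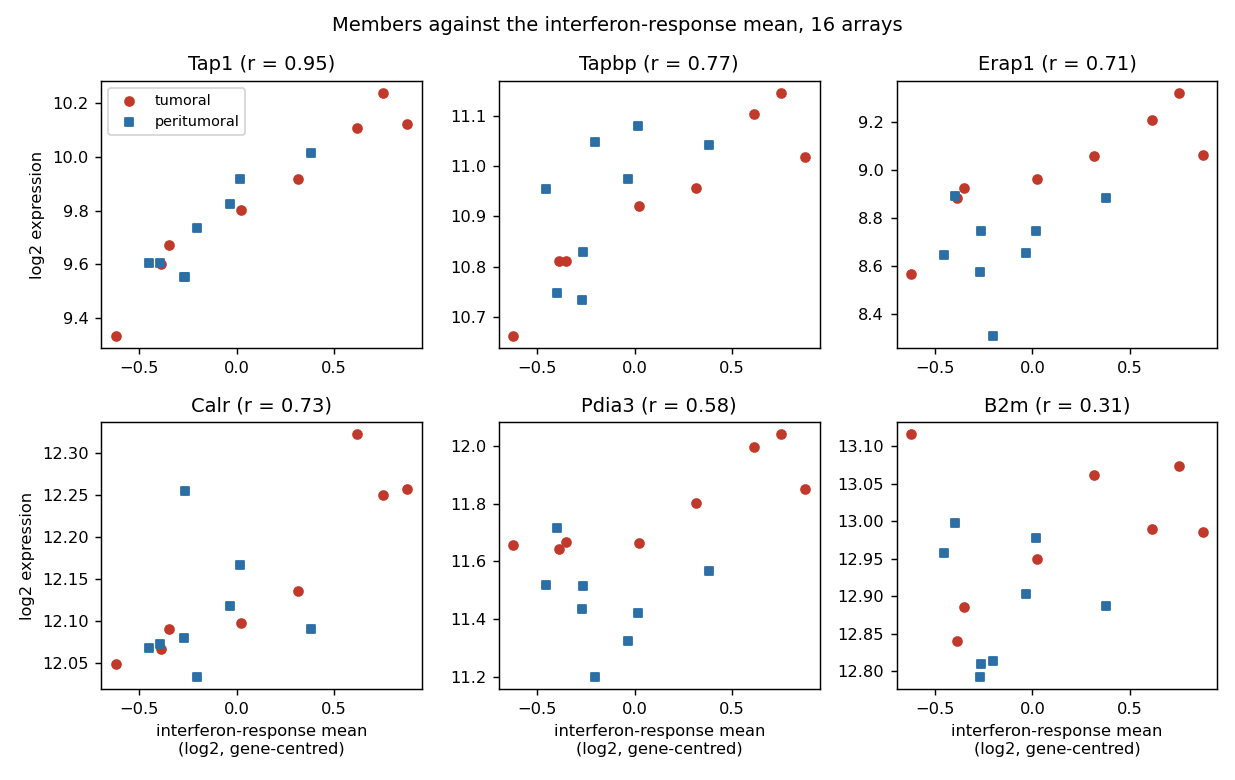
Log2 expression of 6 members against the interferon-response mean (mean of 22 gene-centred log2 values) in 16 arrays, tumoral in red and peritumoral in blue. Tap1 follows 1 line through both labels (r = 0.954), whereas tumoral 2, at the far left, is the highest array for B2m.

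Within tumoral arrays 8 members had an r above 0.8, among them Sec61a1 at 0.957, Tapbp at 0.937, Calr at 0.910, Erap1 at 0.864, Pdia3 at 0.861, Tap2 at 0.833 and Canx at 0.801. Within peritumoral arrays only Tap1 was above 0.8. There Tapbp was at 0.600, Erap1 at 0.279, Tap2 at 0.224, Calr at 0.099, Sec61a1 at 0.060, Canx at -0.017 and Pdia3 at -0.120. The brightest Nlrc5 probe set had -0.441 within tumoral and 0.649 within peritumoral arrays, and B2m 0.261 and -0.049. The difference between the labels in these correlations was not tested. The share of all genes above 0.8 within each label was not computed, so these counts cannot be called particular to the members. Both measures come from the same arrays and share the arrays' depth of signal and cell mixture. The high tumoral arrays are the 3 with low conventional dendritic cell, lung epithelial, B cell and T cell markers.

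**Figure D5:**
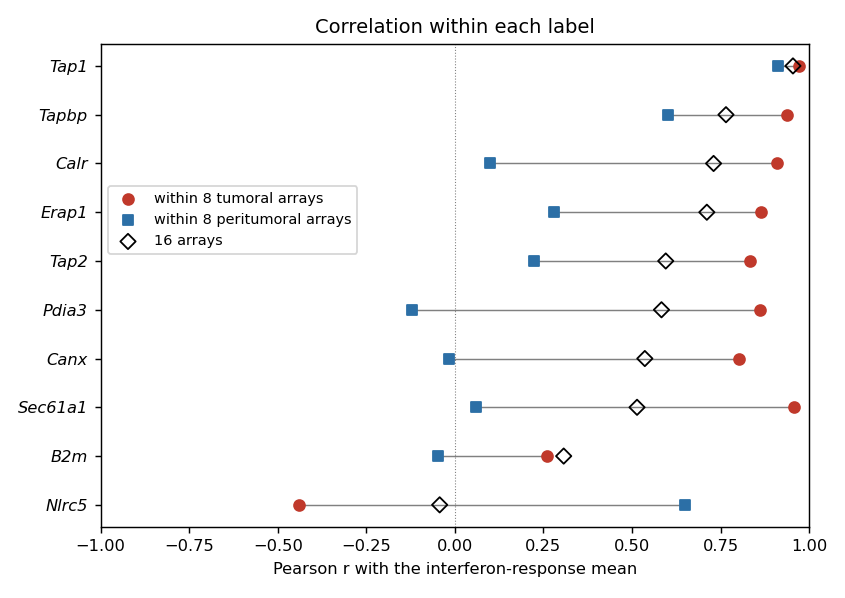
Pearson r of each member with the interferon-response mean within 8 tumoral arrays (red), within 8 peritumoral arrays (blue squares) and over 16 arrays (open diamonds). Tap1 is above 0.9 in all 3, while Pdia3 is at 0.861 within tumoral and -0.120 within peritumoral arrays.

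Among themselves 2 sets of 3 members had like profiles, given here as Pearson r over 16 arrays and as description alone. Tap1, Tap2 and Tapbp, which lie in the MHC region of chromosome 17, correlated at 0.721 (Tap1 with Tap2), 0.881 (Tap1 with Tapbp) and 0.759 (Tap2 with Tapbp). Erap1, Canx and Pdia3, on chromosomes 13, 11 and 2, correlated at 0.827 (Erap1 with Canx), 0.912 (Erap1 with Pdia3) and 0.918 (Canx with Pdia3). Across the sets r ran from 0.056 (Tapbp with Canx) to 0.692 (Tap1 with Erap1), with Tap1 and Pdia3 at 0.497. Calr stood between, at 0.648 with Tap1, 0.664 with Erap1 and 0.666 with Sec61a1, and B2m, which lies on chromosome 2 like Pdia3, reached 0.635 with it.

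The genes most like each member were taken by Pearson r over the 16 arrays. For Tap1 they were Rnf213, Zbp1, a sensor of unusual nucleic acids, and Oasl2, with Pearson r of 0.972, 0.969 and 0.965. For Tap2 they were Psmb9, the immunoproteasome subunit encoded beside Tap1, Ifi35 and Prpf38b (0.879, 0.846 and 0.839), and for Tapbp they were Ifi35, the interferon-induced GTPase Gbp4 and Tap1 itself (0.901, 0.891 and 0.881). For Erap1 they were Hax1, the splicing factor gene Sf3b6 and the prefoldin gene Vbp1 (0.980, 0.977 and 0.975). For Pdia3 they were BC005537, the acyl-CoA synthetase gene Acsl5 and the mitochondrial protease gene Yme1l1 (0.956, 0.953 and 0.949), and for Canx they were Ywhah, BC085271 and Aif1 (0.966, 0.927 and 0.926). Calr was most like Chid1, the proteasome gene Psmd7 and Srprb, a subunit of the signal recognition particle receptor (0.933, 0.933 and 0.931). Sec61a1 was most like Nploc4, a partner of the segregase p97, Prune1 and the arginyl-tRNA synthetase gene Rars (0.988, 0.985 and 0.983). B2m had no gene above 0.8, the value of Tubb3, followed by Gm6548 at 0.781 and the hexokinase gene Hk1 at 0.777. The brightest Nlrc5 probe set was most like Tmprss5, Kcp and Psg20 (0.911, 0.910 and 0.895).

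Other genes of the class I pathway did not pass over all genes either. Of 17 class I heavy chain and class I-like genes 9 could be read. H2-K1 and H2-D1 share their probe sets, which name both, so no level is given for either classical heavy chain. Of the 9, 6 had a positive difference, as 41.7% of all genes did, and 3 a negative one (median 0.05), among them the lipid-presenting Cd1d1 (0.28), H2-Q10 (-0.11) and Mr1, which presents vitamin metabolites (-0.32). All limma adjusted p-values were 0.401 or more, and near-identical copies in this family can share probes.

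Of 11 peptide supply genes 9 had a positive difference (41.7% of all genes) and 2 a negative one (median 0.08), and 3 were higher at an unadjusted p under 0.05 (5.60% of all genes). The proteasome activator gene Psme1 averaged 10.47 ± 0.11 (tumoral) and 10.25 ± 0.18 (peritumoral), the immunoproteasome gene Psmb8 9.71 ± 0.25 and 9.39 ± 0.25, and Tpp2, a cytosolic peptidase, 9.66 ± 0.12 and 9.51 ± 0.13 (SD, n = 8 each). Their limma adjusted p-values were 0.314, 0.327 and 0.396. Psme1 was at 0.29 without peritumoral 7 and 8, past the threshold in the fit that called 2.62% of all genes, and at -0.00013 against those arrays alone. The fit without peritumoral 7 and 8 was chosen after the values were seen, so its call is a description and supports nothing.

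Of 14 folding and translocation genes of the endoplasmic reticulum 12 had a positive difference (41.7% of all genes) and 2 a negative one (median 0.12). At an unadjusted p under 0.05 there were 5, all higher (5.60% of all genes), and 0 passed over all genes. Sec61b, the beta subunit of the same translocon as Sec61a1, had means of 9.07 ± 0.09 for tumoral and 8.65 ± 0.32 for peritumoral arrays (SD, n = 8 each; limma adjusted p = 0.246). The chaperone genes Hsp90b1 and Hspa5 differed by 0.20 and 0.15 (limma adjusted p = 0.256 and 0.275). For Hsp90b1 all 8 tumoral arrays were above 7 peritumoral arrays. Of 13 unfolded protein response genes 10 had a positive difference and 3 a negative one (median 0.12), with 5 higher at an unadjusted p under 0.05, beside the same shares of all genes. Among these were the co-chaperone gene Dnajb9 (0.40) and the stress transcription factor genes Ddit3 (0.215) and Atf4 (0.215), with limma adjusted p-values of 0.256, 0.287 and 0.304. Without peritumoral 7 and 8, Sec61b was at 0.55, Dnajb9 at 0.53 and Atf4 at 0.29. Each was past the threshold, as were 2.62% of all genes, in a fit chosen after seeing the values, whose calls support nothing. Against peritumoral 7 and 8 alone they were at 0.009, 0.029 and 6.5e-05 (limma adjusted p = 1 for each). Without peritumoral 4 and 7, Dnajb9 was past the threshold as well (0.52, limma adjusted p = 0.0465), where 88 of all 19938 genes passed. Both of these fits leave out peritumoral 7.

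Of 16 cross-presentation traffic genes 14 had a positive difference and 2 a negative one (median 0.08), with 5 higher at an unadjusted p under 0.05, against 41.7% and 5.60% of all genes. Snap23 was lower at that level. Vamp8, a SNARE of late endosomes, had means of 9.995 ± 0.248 for tumoral and 9.641 ± 0.215 for peritumoral arrays, whereas Snap23, a SNARE of the plasma membrane and phagosome, measured 11.90 ± 0.04 and 12.06 ± 0.12 (SD, n = 8 each). The p97 gene Vcp differed by 0.27. Their limma adjusted p-values were 0.267, 0.314 and 0.385.

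Of 20 regulator and receptor genes 14 had a positive difference and 6 a negative one (median 0.08), with 4 higher at an unadjusted p under 0.05, against 41.7% and 5.60% of all genes. Irf1, an interferon-induced activator of class I genes, had means of 10.41 ± 0.16 for tumoral and 10.05 ± 0.41 for peritumoral arrays (SD, n = 8 each), a difference of 0.36 (limma adjusted p = 0.363). Rfxap, a subunit of the RFX complex, differed by 0.15 and Irf2 by 0.14 (limma adjusted p = 0.382 and 0.403). Against peritumoral 7 and 8 alone, Irf1 was at -0.03 and Irf2 at -0.04. Of 22 interferon-response genes 20 had a positive difference and 2 a negative one (median 0.34), with 4 higher at an unadjusted p under 0.05, beside the same shares. The lowest limma adjusted p among them was 0.283, for Oas1a (0.54). It was at 0.67 without peritumoral 7 and 8, past the threshold in the fit that called 2.62% of all genes, and at 0.165 against those arrays alone. This call comes from the split chosen after the values were seen and supports nothing.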

How the data were processed

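Affymetrix whole-transcript arrays were run on 8 tumoral and 8 peritumoral samples as biotin-labelled cDNA made from amplified total RNA, per the labels' protocols. The authors deposited a table of 28853 probe sets by 16 arrays, read here as log2 values because they run from 2.31 to 14.33. Neither a log base nor a background correction or normalization method is stated in those labels (not given in the sources used here), and detection calls were not used here. The number of arrays limits the precision. Array medians ran from 6.75 to 6.95.

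Gene names came from the platform's annotation, in which 21789 probe sets named 1 gene, 1621 several and 5443 none. The last 2 kinds were not used for members or tests. Where a gene had several probe sets the brightest was kept, which gave 19938 genes. Gene IDs matched to RefSeq of GRCm38.p6 changed 0 symbols.

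The contrast was tumoral minus peritumoral. It was fitted by lmFit and eBayes of limma 3.58.1 (R 4.3.3) with label as the only term and no filter on dim probe sets, and p-values were adjusted by Benjamini-Hochberg over 19938 genes and called at 0.05. limma was tested on simulated data with independent noise for each gene and array. That test does not cover arrays that stand apart, as some do here. Correlations with the interferon-response mean used two-sided permutation tests with 100000 draws (Python 3.11.15), adjusted over 10 members. The draws took the arrays as exchangeable across both labels. The pathway genes named are the 3 of each list with the smallest p, and the most alike genes the 3 with the highest r. Members and lists were chosen with earlier results of these data known. The Nlrc5 probe set fit and the fits without peritumoral 1 to 6 or 7 and 8 were chosen after seeing the data. The labels state no pairing, so the numbers were not taken as pairs. Same-numbered arrays deviated with r between -0.563 and 0.286. That r cannot decide the pairing, as the arrays that stand apart carry other numbers under each label.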

Additional observations from a re-analysis of the deposited data

Results flagged for a closer look

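Tap2 in tumoral 2 measured 8.383, against 8.639 in the nearest tumoral array. That gap was 0.554 of the tumoral range, above Dixon's critical value of 0.526 for 8 samples. It was the only one of 24 sets of 8 arrays examined (the members, the mean of the 18 other Nlrc5 probe sets and the interferon-response mean, under each label) to exceed it, where chance flags about 1 in 20. The interferon-response mean of that array was -0.62, the lowest of the 16, and Tap1, Tapbp and Sec61a1 were also lowest there.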

How the results depend on the processing

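The count of genes past the threshold over all genes was 0 in the main limma fit, with 2292 at an unadjusted p under 0.05, and 0 by the rank-sum test, with 2307. It was 0 to 128 leaving out single arrays (128 without peritumoral 7 and 20 without peritumoral 8), 88 without peritumoral 4 and 7, and 522 without peritumoral 7 and 8. The number of members higher in tumoral arrays was 7, 5 to 9 under the other settings and 6 to 8 leaving out single arrays. Tapbp turned to -0.035 with quantile normalization, -0.048 with cyclic loess, -0.011 with array weights, -0.007 without peritumoral 4 and 7 and -0.008 without peritumoral 7 and 8, and ran from -0.029 to 0.040 leaving out single arrays. Calr was at -0.005 with cyclic loess. Tap2 was at 0.029 after centring on array medians and ran from -0.051 to 0.019 leaving out single arrays. Nlrc5 was at 0.002 after centring and at 0.275 as the mean of its 19 probe sets, which follows from the 18 probe sets described above. Against peritumoral 7 and 8 alone Sec61a1 was at 0.098, Mr1 at 0.237, Psme1 at -0.00013, Irf1 at -0.031 and Irf2 at -0.036. The cause of these turns was not tested. The number of members whose correlation with the interferon-response mean passed was 7, with 1 under cyclic loess (Tap1) and 4 to 8 leaving out single arrays (4 without tumoral 1 and 4 without tumoral 7). The share of all genes that correlated as closely was not computed, so this count cannot be called particular to the members. With the replicate number as a block the count over all genes was 0 and 7 members were higher, and the block changed no call. Of 836 values for 31 genes, 806 kept direction and call, 22 turned and 8 newly passed.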
